A study of Homo sapiens with 8 samples.

Results

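The 10 non-fibrillar collagen genes described here are *COL4A1*, *COL4A2*, *COL6A1*, *COL6A2*, *COL6A3*, *COL7A1*, *COL8A1*, *COL12A1*, *COL16A1* and *COL18A1*. They were chosen by gene symbol among the 16796 genes of the count files, with earlier results of these data known. The files hold 39 collagen genes in all, and each of the 10 was present and had enough counts to be tested. Gene expression was measured by RNA-seq in LX-2, a human hepatic stellate cell line, grown in medium with 5% serum. Cells of the control group received the vehicle DMSO, and cells of the OGTi group received OSMI-1 at 50 µM, both for 24 h. OSMI-1 is a small molecule inhibitor of O-GlcNAc transferase (OGT), the enzyme that attaches the sugar O-GlcNAc to proteins inside the cell. Each group had 4 biological replicates of this single line, and replicate numbers pair a treated with a control library. The comparison of OGTi with control addresses how inhibition of OGT changes collagen expression in myofibroblastic stellate cells.

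Fibrillar collagens such as types I and III form the rope-like fibrils of scar tissue. Non-fibrillar collagens build other structures: sheet-like networks in basement membranes (type IV), beaded microfilaments around cells (type VI), anchoring fibrils (type VII), short-chain lattices (type VIII), molecules that sit on the surface of fibrils (types XII and XVI), and basement membrane proteoglycans (type XVIII). Each molecule is a triple helix of 3 chains, so that genes such as *COL4A1* and *COL4A2* encode parts of the same protein. In the liver, stellate cells make both classes of collagen when they become myofibroblasts, and type IV and type VI collagens lie in the space between hepatocytes and sinusoids.

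The libraries held 24166756 to 28201215 counts each. Levels are given as normalized counts, which are counts divided by a factor for the depth of the library. No library was a copy of another of its group, since counts differed between any 2 libraries of a group beyond sampling noise (chi-square over degrees of freedom, 8.66 to 36.16). Of 13 stellate cell markers, 10 reached an average of 10 normalized counts in each group, and *DES*, *LRAT* and *HAND2* were at or near 0. Their summed level, to which *COL1A1* and *COL3A1* contribute, was 179110 to 204700 in control and 135311 to 159467 in OGTi libraries. *COL1A1* fell from 84780 ± 5372 to 43930 ± 5335, while *VIM*, at 95090 ± 8983 and 89630 ± 13610, was not called. *ACTA2*, *PDGFRB*, *THY1* and *COL3A1* were also called lower. *NGFR* was called higher (103.6 ± 34.1 against 1638 ± 644.4), and *PDGFRA*, *RGS5* and *LHX2* were not called. The summed level was 47 to 105 in control and 201 to 299 in OGTi libraries for 4 hepatocyte markers. *CYP2E1* carried this difference (41.4 ± 17.3 against 199.8 ± 51.6), *SERPINA1* and *TF* were not called, and *APOA1* was at 0 in every control library. It was 75 to 99 against 19 to 46 for 6 endothelial markers, of which *CDH5* (37.3 ± 9.59 against 3.86 ± 2.10) and *TEK* were called lower and *VWF* and *PECAM1* were not called. It was 763 to 1220 against 1153 to 1394 for 7 epithelial markers, of which *SOX9* and *TP63* were called higher and *KRT7* lower, with *KRT5* at 0 in every control library. For 5 macrophage markers it was 2482 to 4089 against 5616 to 9393, of which *CD68* alone made 2412 to 4023 and 5512 to 9305. The part of these differences in the collagen results was not tested. Fewer cells that express a gene and less RNA of that gene per cell cannot be told apart in such libraries.

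*COL4A1* and *COL4A2*, which encode the most widespread chains of basement membrane collagen, lie head to head on chromosome 13 and are read in opposite directions (GRCh38). *COL4A1* spans 110148963 to 110307157 on the minus strand, and *COL4A2* spans 110305812 to 110513209 on the plus strand. These spans are those of the GENCODE annotation, in which the genes overlap and their starts are 1345 bases apart. The RefSeq starts of both genes, at 110307157 and 110307284, are 127 bases apart. The RefSeq promoter window of *COL4A2* (GRCh38.p14, chr13:110307034-110307333, plus strand) reaches from 250 bases before to 50 bases after its RefSeq start. It holds both RefSeq starts, at positions 124 and 251 counted from 1 at its 5′ end, and lies inside the GENCODE span of *COL4A2*. It is shown because both genes were lower in OGTi cells, and it shares 226 bases with the window of *COL4A1*. Capitals mark a CCAAT box at position 146 and a GGGCGG box, the letters bound by SP and KLF factors, at position 186. Both boxes lie between the RefSeq starts.

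*COL4A2*: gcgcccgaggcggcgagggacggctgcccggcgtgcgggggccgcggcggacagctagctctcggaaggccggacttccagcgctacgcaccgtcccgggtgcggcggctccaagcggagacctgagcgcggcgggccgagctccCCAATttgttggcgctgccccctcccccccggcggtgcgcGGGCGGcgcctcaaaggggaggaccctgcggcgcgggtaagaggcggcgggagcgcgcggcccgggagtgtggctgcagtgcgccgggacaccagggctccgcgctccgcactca

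*COL12A1*, whose product binds the surface of type I collagen fibrils, lies on chromosome 6 from 75084326 to 75206267 on the minus strand. Its promoter window (chr6:75206004-75206303, minus strand) is shown because it held GGAATG, the core letters of the motif bound by TEAD factors. Among the windows searched, which covered 8 of the 10 genes, no other held these letters. Windows were searched on both strands for these letters and for the GGGCGG and CCAAT boxes, and a motif on the minus strand of a window appears as its reverse complement. Capitals mark GGAATG at position 84, which is position -167 relative to the RefSeq start. They also mark the reverse complement of GGGCGG at positions 33 and 269. The span given above is that of GENCODE and reaches 75206267. GGAATG, whose lowest base is 75206215, therefore lies inside that span and not before the GENCODE start.

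*COL12A1*: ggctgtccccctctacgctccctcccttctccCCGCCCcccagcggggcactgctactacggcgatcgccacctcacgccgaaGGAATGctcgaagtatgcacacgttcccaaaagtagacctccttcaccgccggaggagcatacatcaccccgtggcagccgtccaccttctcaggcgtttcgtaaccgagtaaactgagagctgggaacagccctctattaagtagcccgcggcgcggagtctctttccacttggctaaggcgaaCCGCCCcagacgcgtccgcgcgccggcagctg

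GGAATG was present in 14.0% of 35116 RefSeq promoter windows of the same length, GGGCGG in 45.0% and CCAAT in 34.6%. These matches describe the letters of the windows and not binding. The windows of *COL6A1* and *COL8A1* were not analysed here.

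Of the 10 genes, 7 were lower and 1 was higher in OGTi cells at a DESeq2 adjusted p (q) of 0.05 or less, and 2 did not pass. The genes that fell were *COL4A1*, *COL4A2*, *COL7A1*, *COL8A1*, *COL12A1*, *COL16A1* and *COL18A1*. *COL6A1* rose, and *COL6A2* and *COL6A3* were not called. Over all 14028 genes with a q, 24.0% were called lower and 22.7% higher. Among the 11951 of them that were at least as abundant as *COL6A3*, the least abundant of the 10, 26.9% were called lower and 25.2% higher. The median log2 fold change of the 10 genes was -0.48 against 0.00 over all 14895 genes tested. The values of the OGTi libraries lay wholly below those of the control libraries for 6 of the 10 genes and wholly above for 0, where the share over all tested genes was 19.2% below and 18.8% above. Without the replicate block, DESeq2 and edgeR each called 6 of the 10 genes lower and 0 higher, and at an unadjusted p under 0.05 each had 7 lower and 0 higher. DESeq2 also called 6 lower without replicate 1 and without replicate 4. The 10 genes were chosen with earlier results known, so the shares over all genes are given as description only.

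**Figure D1:**
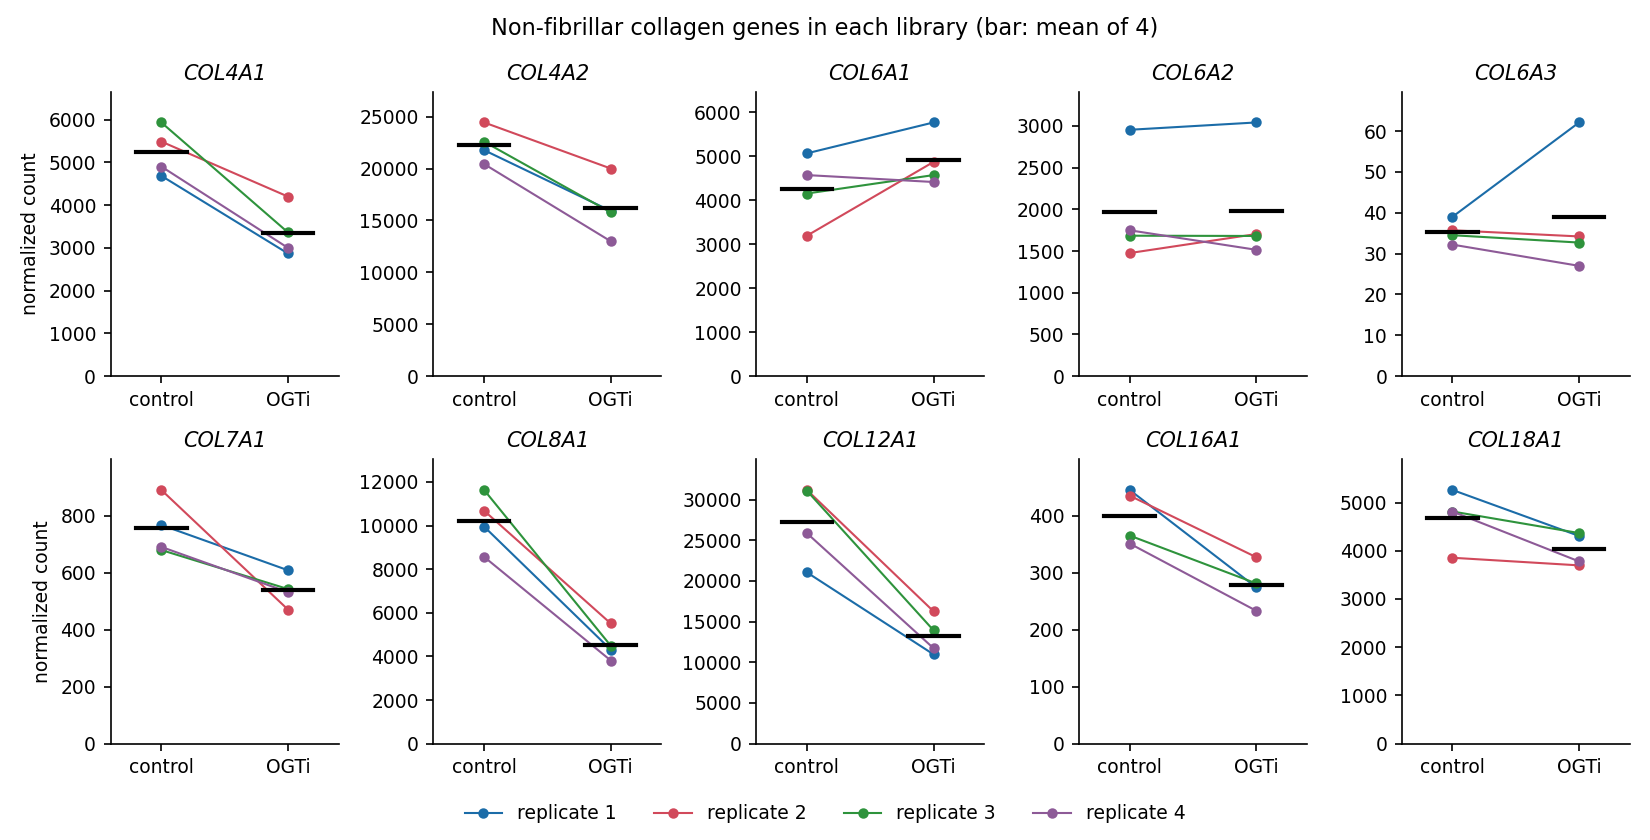
Normalized count (vertical axis, from 0) of each of the 10 genes in the control and OGTi libraries, with a line joining the libraries of the same replicate number and a black bar at the mean of 4. COL4A1, COL4A2, COL7A1, COL8A1, COL12A1 and COL16A1 have all 4 OGTi values below all 4 control values, while the type VI genes and COL18A1 overlap between groups and replicate 1 is highest for COL6A1, COL6A2 and COL6A3 in both groups.

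The largest falls among the 10 were those of *COL8A1* and *COL12A1*. *COL8A1* (chromosome 3, 99638475 to 99799226, plus strand) encodes a short-chain collagen that forms lattices and is made by vascular and mesenchymal cells. Its normalized counts were 9951, 10679, 11631 and 8564 in control replicates 1 to 4 and 4309, 5510, 4489 and 3812 in OGTi replicates 1 to 4. The groups did not overlap, and each OGTi library was lower than its paired control. DESeq2 gave a log2 fold change of -1.18 ± 0.08 (SE, 95% interval -1.33 to -1.02, DESeq2 q of 4.43e-49), which puts the OGTi level at 44.3% of control. *COL8A2*, which encodes the other type VIII chain, was near the limit of detection, with at most 18.5 normalized counts in control and 21.1 in OGTi libraries.

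*COL12A1* had 21053, 31186, 31089 and 25877 normalized counts in control replicates 1 to 4 and 10975, 16266, 13931 and 11731 in OGTi replicates 1 to 4. Replicate 1 was the lowest and replicate 2 the highest in both groups, and the groups did not overlap. The log2 fold change was -1.04 ± 0.07 (95% interval -1.18 to -0.91, DESeq2 q of 3.39e-50), or 48.5% of the control level, and was between -0.94 and -1.16 in the 4 pairs. *COL16A1* (chromosome 1, 31652263 to 31704319, minus strand), which encodes another collagen of the fibril-associated class, was far less abundant. It had 445, 435, 365 and 351 normalized counts in control and 274, 327, 281 and 233 in OGTi replicates 1 to 4, with no overlap. Its log2 fold change was -0.52 ± 0.14 (95% interval -0.79 to -0.25, DESeq2 q of 0.000662).

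The type IV genes fell together but by less. *COL4A1* had 4687, 5488, 5935 and 4904 normalized counts in control and 2870, 4201, 3363 and 3001 in OGTi replicates 1 to 4. The groups did not overlap, and the log2 fold change was -0.66 ± 0.08 (95% interval -0.82 to -0.49, DESeq2 q of 4.1e-14). *COL4A2* had 21779, 24448, 22592 and 20440 normalized counts in control and 15918, 20009, 15781 and 12997 in OGTi replicates 1 to 4. Its highest OGTi library, replicate 2, was just below its lowest control library, replicate 4. Its log2 fold change was -0.48 ± 0.07 (95% interval -0.62 to -0.34, DESeq2 q of 4.43e-10), so that the OGTi level was 71.8% of control against 63.5% for *COL4A1*. In both genes replicate 2 was the highest OGTi library and its pair changed least, by -0.39 for *COL4A1* and -0.29 for *COL4A2* on the log2 scale.

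*COL7A1* (chromosome 3, 48564073 to 48595329, minus strand) encodes the chain of anchoring fibrils, which tie basement membranes to the tissue below. Its normalized counts were 768, 891, 680 and 691 in control and 609, 471, 543 and 532 in OGTi replicates 1 to 4. The groups did not overlap, although replicate 2 was the highest control and the lowest OGTi library. *COL7A1* fell by 0.49 ± 0.13 on the log2 scale (95% interval -0.73 to -0.24, DESeq2 q of 0.000383), and the change of -0.92 in pair 2 stood beside -0.32 to -0.38 in the other pairs. Without replicate 2 the log2 fold change was -0.34 and the call held.

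*COL18A1* (chromosome 21, 45405165 to 45513720, plus strand) encodes a basement membrane proteoglycan whose end fragment is known as endostatin. It had 5261, 3855, 4814 and 4813 normalized counts in control and 4307, 3697, 4367 and 3779 in OGTi replicates 1 to 4. The groups overlapped, since control replicate 2 was lower than OGTi replicates 1 and 3, but the OGTi library was the lower in each of the 4 pairs. The log2 fold change was -0.21 ± 0.08 (95% interval -0.36 to -0.06, DESeq2 q of 0.0143). The call was lost without replicate 1 (DESeq2 q of 0.0753), without replicate 4 (0.166) and without the replicate block (0.0877, or 0.0970 in edgeR). Exons of *COL18A1* share 1563 bases with those of *SLC19A1*, a folate carrier gene on the opposite strand, and the counting used strand. *SLC19A1* had 958 to 1092 normalized counts in control and 612 to 806 in OGTi libraries (log2 fold change -0.55 ± 0.10, DESeq2 q of 9.03e-08).

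None of the 3 type VI genes was called lower. *COL6A1* (chromosome 21, 45981770 to 46005050, plus strand) and *COL6A2* (46098112 to 46132848, plus strand) are neighbours whose starts are 116.34 kb apart, and their products join with that of *COL6A3* in type VI collagen. *COL6A1* had 5063, 3191, 4150 and 4569 normalized counts in control and 5765, 4868, 4569 and 4412 in OGTi replicates 1 to 4. It was higher in 3 of 4 pairs and the groups overlapped. The log2 fold change was 0.22 ± 0.10 (95% interval 0.03 to 0.41, DESeq2 q of 0.0453). The call was lost without replicate 1 (DESeq2 q of 0.362), without replicate 2 (0.477, with a log2 fold change of 0.09) and without replicate 3 (0.0820). It was also lost without the replicate block, with a q of 0.205 in DESeq2 and 0.204 in edgeR.

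*COL6A2* had 2954, 1476, 1684 and 1749 normalized counts in control and 3042, 1704, 1681 and 1515 in OGTi replicates 1 to 4. Replicate 1 was far above the others in both groups, and the OGTi library was higher in 2 pairs and lower in 2. The log2 fold change was 0.01 ± 0.09 (95% interval -0.16 to 0.18, DESeq2 q of 0.938). *COL6A3* (chromosome 2, 237324003 to 237414328, minus strand), which encodes the largest of these chains, was scarce. Its normalized counts were 39.0, 35.7, 34.5 and 32.2 in control and 62.1, 34.2, 32.7 and 27.0 in OGTi replicates 1 to 4, and replicate 1 was again the highest in both groups. The log2 fold change was 0.08 ± 0.38 with a wide 95% interval of -0.66 to 0.83 (DESeq2 q of 0.885), and it turned to -0.13 without replicate 1. Of the genes for chains that can take the place of the *COL6A3* product, *COL6A5* reached 1.95 and *COL6A6* 6.03 normalized counts at most in any library.

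**Figure D2:**
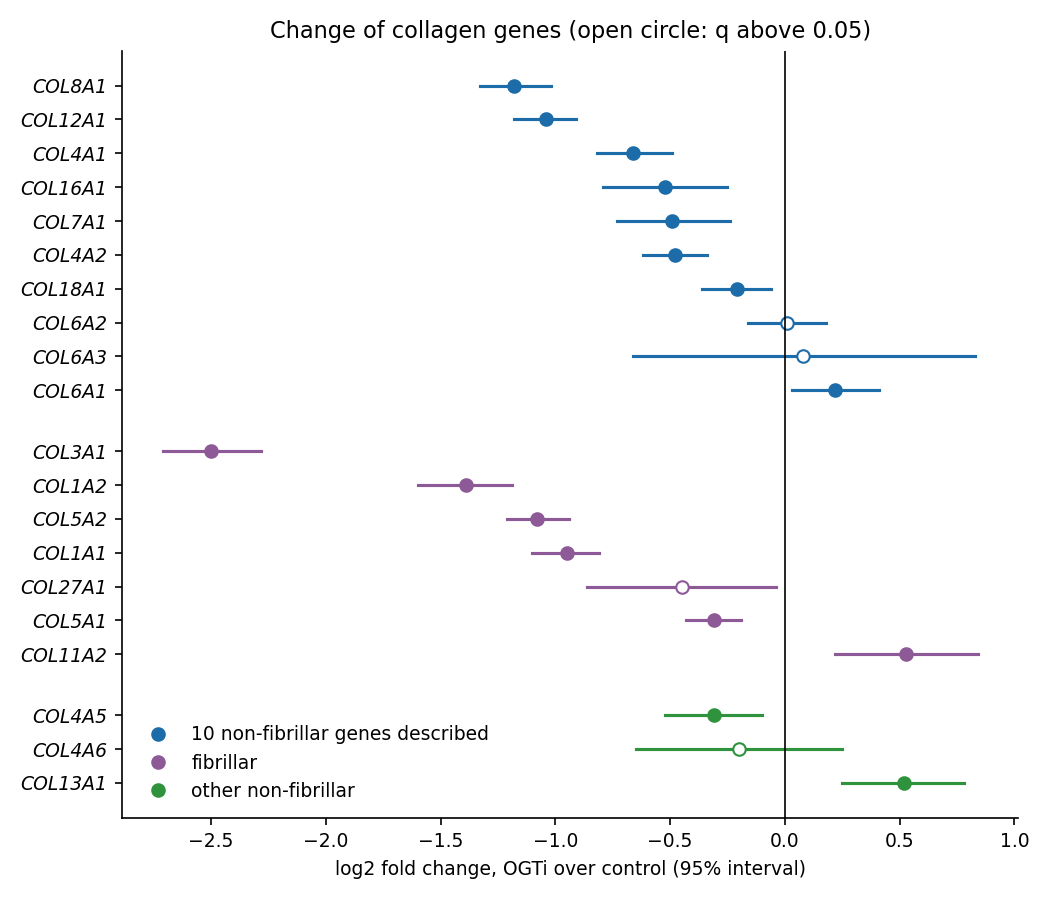
Log2 fold change of OGTi over control (horizontal axis) with its 95% interval for the 10 genes and for the other collagen genes that averaged 100 normalized counts or more, with open circles for genes with a q above 0.05. Among the 10 genes the values run from -1.18 for COL8A1 to 0.22 for COL6A1, and the interval of COL6A3 is the widest.

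Chains of the same molecule were compared within each library, as the log2 ratio of their normalized counts. The ratio of *COL4A2* to *COL4A1* was 2.22, 2.16, 1.93 and 2.06 in control and 2.47, 2.25, 2.23 and 2.11 in OGTi replicates 1 to 4. It was higher in OGTi in all 4 pairs, by 0.06 to 0.30, but the groups overlapped. The mean difference of 0.18 was not past the threshold in a two-sided exact permutation test (p of 0.143, adjusted p of 0.429 over the 3 ratios tested), in which the smallest possible p was 0.0286.

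The ratio of *COL6A2* to *COL6A1* was -0.78, -1.11, -1.30 and -1.39 in control and -0.92, -1.51, -1.44 and -1.54 in OGTi replicates 1 to 4. It was lower in OGTi in all 4 pairs, with a mean difference of -0.21 (two-sided exact permutation p of 0.314, adjusted p of 0.471). The ratio of *COL6A3* to *COL6A1* was -6.48 to -7.15 in control and -6.54 to -7.35 in OGTi libraries. Its pairs did not share a direction, with differences from -0.67 to 0.49 (mean -0.15, two-sided exact permutation p of 0.486, adjusted p of 0.486), and the mean difference was 0.02 without replicate 2. None of the 3 ratios passed this unpaired test. A sign-flip test over the 4 pairs cannot give a p below 0.125, which it gave for *COL4A2* to *COL4A1* and for *COL6A2* to *COL6A1* (exact, two-sided). No ratio could have passed the threshold in that test, so it cannot decide whether these ratios changed within pairs.

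**Figure D3:**
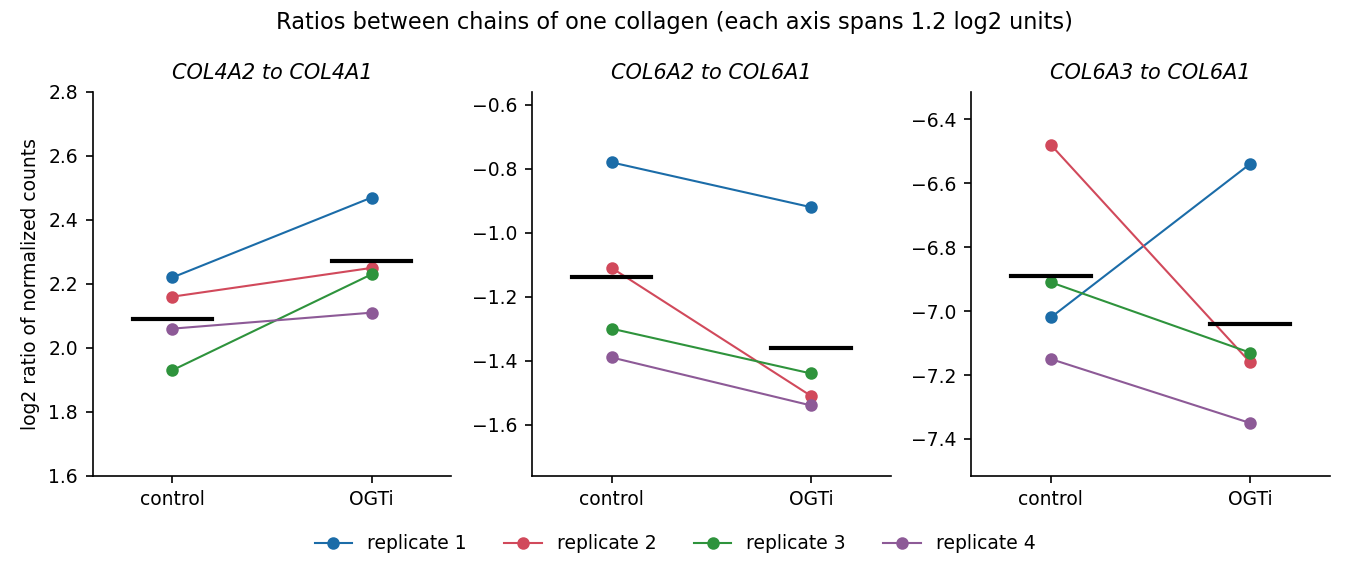
Log2 ratio of normalized counts between chains of type IV and type VI collagen in each library, with lines joining the libraries of the same replicate and black bars at the mean of 4. The COL4A2 to COL4A1 ratio is higher and the COL6A2 to COL6A1 ratio lower in OGTi in every pair, but the values of both groups overlap in all 3 panels.

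To compare levels between genes, normalized counts were divided by the length of the reference transcript in kilobases. The order at the top depends on this choice: with the merged length of all exons of a gene, control levels were 1450 ± 257 per kb for *COL12A1* and 1160 ± 87.0 for *COL4A2*, with overlapping ranges. On the reference transcript *COL4A2* had the highest control level of the 10 genes, 3460 ± 260 normalized counts per kb (SD, n = 4), and was above *COL12A1* (2330 ± 413) in every library. The control ranges of *COL12A1* and *COL8A1* (1850 ± 234) overlapped. Below them came *COL6A1* (1010 ± 189), *COL18A1* (866 ± 110), *COL4A1* (803 ± 86.6) and *COL6A2* (571 ± 194), in which each range overlapped that of its neighbour. *COL7A1* (82.0 ± 10.5) and *COL16A1* (73.6 ± 8.86) were not separated from each other, and *COL6A3* was last at 3.36 ± 0.267. Among all 39 collagen genes, *COL4A2* had rank 2 after *COL1A1*, which had 14300 ± 908.

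In OGTi libraries *COL4A2* had rank 1 of the 10 on the reference transcript, at 2510 ± 448 normalized counts per kb. With merged exons *COL6A1* had rank 1 (886 ± 109), and its range overlapped that of *COL4A2* (839 ± 150). *COL6A1* (1170 ± 144) moved from rank 4 to rank 2, although its range overlapped that of *COL12A1* (1130 ± 203), and *COL8A1* (821 ± 129) overlapped *COL18A1* (747 ± 64.3). The summed level of the 10 genes was 11050 ± 589 per kb in control and 7575 ± 881 in OGTi libraries. Of this sum, *COL8A1* and *COL12A1* made 16.7% and 21.0% in control and 10.8% and 14.9% in OGTi libraries, whereas *COL6A1* made 9.19% and 15.5%.

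**Figure D4:**
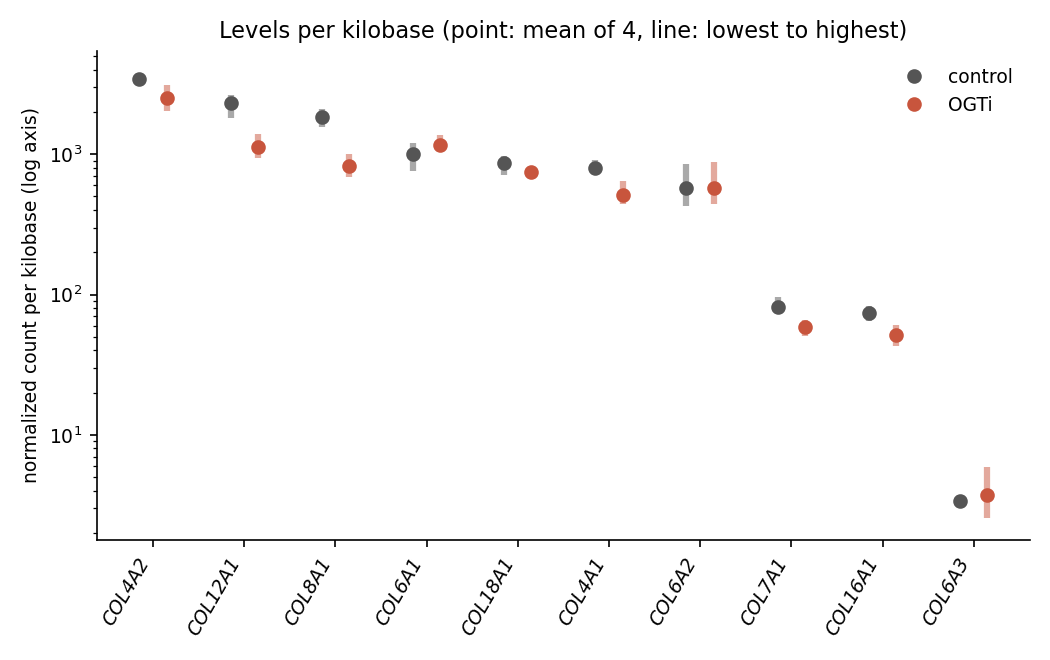
Normalized count per kilobase of transcript (log axis) of the 10 genes, ordered by their control mean, with points at the mean of 4 libraries and lines from the lowest to the highest library. On these transcript lengths COL4A2 is highest and COL6A3 lowest in both groups, and COL6A1 goes from rank 4 to rank 2 under OGTi with a range that overlaps that of COL12A1. With merged exon lengths COL12A1 is first in control and COL6A1 in OGTi.

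The 10 genes held 35.0%, 36.4%, 34.9% and 34.5% of the level of all 39 collagen genes, per kb, in control replicates 1 to 4 and 45.1%, 42.1%, 39.8% and 40.0% in OGTi replicates 1 to 4. The share was higher in every OGTi library than in every control library, by 6.59 percentage points on average. This share also moves with the other collagens, of which *COL1A1* was the most abundant. Levels of all 39 genes summed to 31405 ± 1512 per kb in control and 18132 ± 1837 in OGTi libraries.

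Among the 11 fibrillar collagen genes, 8 had a q. DESeq2 called 6 of them lower and 1 higher, and the median log2 fold change over the 11 was -0.95. *COL3A1* (-2.50 ± 0.11), *COL1A2* (-1.39 ± 0.10), *COL5A2* (-1.08 ± 0.07), *COL1A1* (-0.95 ± 0.07) and *COL5A1* (-0.31 ± 0.06) fell by DESeq2, so that the log2 fold changes of *COL8A1* and *COL12A1* lay in the range of the abundant fibrillar genes. *COL5A3* was also lower, at a mean of 47.5 normalized counts, and its call was lost without replicate 1 (DESeq2 q of 0.0820). *COL11A2* rose (0.53 ± 0.16, DESeq2 q of 0.00232), and *COL27A1* was not called (-0.45 ± 0.21, q of 0.0655) except in edgeR with the block (0.0387) and without replicate 1 (0.00118).

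Of the 18 other non-fibrillar collagen genes in the files, 8 had a q, and DESeq2 called 3 of these lower and 2 higher. *COL4A5*, a type IV chain gene of chromosome X, fell from 837.0 ± 74.4 to 676.1 ± 43.7 normalized counts (log2 fold change -0.31 ± 0.11, DESeq2 q of 0.0110), and the call was lost without replicate 2 (0.107) and without replicate 3 (0.0975). Its neighbour *COL4A6* was not called (-0.20 ± 0.23, q of 0.508). *COL13A1*, which encodes a collagen that spans the cell membrane, rose from 401.7 ± 52.5 to 575.8 ± 89.8 (0.52 ± 0.14, DESeq2 q of 0.000514). The other 3 called genes were scarce and were named after their values were seen. *COL15A1*, the closest relative of *COL18A1*, had 30.2 to 59.8 normalized counts in control and 0 to 6.73 in OGTi libraries (DESeq2 q of 2.44e-09), and *COL9A2* had 51.0 to 85.7 and 16.3 to 32.0 (DESeq2 q of 5.33e-05). *COL8A2* was called higher (DESeq2 q of 0.0338), but not without the block (0.183) nor without replicate 2, 3 or 4 (0.129 to 0.161).

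Genes that act with collagens were counted in 4 lists chosen by function, with earlier results of these data known. The counts stand beside 24.0% called lower and 22.7% called higher over all genes with a q. Of 16 collagen receptor genes, 3 were called lower and 7 higher by DESeq2, with a median log2 fold change of 0.37. *DDR2*, a receptor tyrosine kinase for collagen, rose from 2942 ± 422.5 to 4942 ± 316.5 normalized counts (log2 fold change 0.76 ± 0.08, DESeq2 q of 6.43e-20). *ITGA2*, the α2 chain of a collagen-binding integrin, rose from 406.1 ± 55.5 to 988.8 ± 260.8 (1.26 ± 0.15, DESeq2 q of 1.25e-16). *ADGRG6*, an adhesion receptor for type IV collagen, fell from 956.9 ± 101.8 to 581.6 ± 151.6 (-0.74 ± 0.12, DESeq2 q of 1.39e-09).

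Of 19 tested basement membrane partners, 8 were called lower and 6 higher, with a median log2 fold change of -0.02. Leaving out replicate 1, 3 or 4 gave 6 called lower, and leaving out replicate 2 gave 4 called higher. *NID2*, which encodes a nidogen that links laminin and type IV collagen networks, rose from 954.7 ± 156.3 to 1872 ± 282.4 normalized counts (0.97 ± 0.09, DESeq2 q of 1.54e-27). *HSPG2*, which encodes the proteoglycan perlecan, rose as well (0.59 ± 0.09, DESeq2 q of 6.63e-11). *SPARC*, whose product binds collagen, fell from 22910 ± 966.8 to 15840 ± 1415 (-0.54 ± 0.07, DESeq2 q of 3.86e-15). The other 5 tested partners were not called.

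Of 30 genes for collagen folding and secretion, 8 were called lower and 11 higher, with a median log2 fold change of 0.06. Over all genes with a q the shares were 24.0% lower and 22.7% higher, and edgeR without the block called 7 of the list lower and 9 higher. The 3 genes of the list with the largest Wald statistics, among those with a shared direction in all 4 pairs, were all lower. They were *FKBP10*, a collagen chaperone (-0.94 ± 0.07, DESeq2 q of 4.81e-35), *SEC23A*, a coat subunit of the vesicles that leave the endoplasmic reticulum (-0.85 ± 0.07, q of 1.79e-33), and *COLGALT1*, which adds galactose to hydroxylysine (-0.67 ± 0.07, q of 9.91e-22). The list of genes that cleave, release or cross-link collagen had 19 genes with a q. DESeq2 called 9 of them lower and 4 higher (median log2 fold change -0.37), and 1 higher without replicate 2. The number called lower was 6 without replicate 1 and without replicate 4, and 7 without the block. *TLL1*, a tolloid proteinase that trims procollagens, fell from 2178 ± 400.9 to 589.2 ± 158.8 normalized counts (-1.91 ± 0.10, DESeq2 q of 4.8e-74). *LOXL2*, a cross-linking enzyme with type IV collagen among its substrates, fell from 14960 ± 1042 to 9860 ± 1627 (-0.61 ± 0.07, DESeq2 q of 2.9e-15). *CTSL*, which encodes the lysosomal protease cathepsin L, rose from 1708 ± 128.0 to 4029 ± 662.9 (1.23 ± 0.08, DESeq2 q of 1.27e-51).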

How the data were processed

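RNA-seq libraries of LX-2 cells (4 control, 4 OGTi) were analysed. Per the labels, libraries were stranded and made from RNA enriched with oligo dT. The authors aligned reads to hg38 with Bowtie2 2.3.5.1 and deposited RSEM 1.3.1 expected counts per gene and library, unscaled for depth, in which 12.9% to 16.3% of the genes of a library had fractional values. A deposited table of the authors' DESeq2 1.36.0 comparison (fold changes and p-values) was not used.

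Counts were rounded, and the 14895 genes with a total of at least 10 were compared in DESeq2 1.42.0 (R 4.3.3, Wald test, median-of-ratios size factors, independent filtering, no shrinkage), with replicate number as a block after the study's methods and a Benjamini-Hochberg q of 0.05 over all genes. Intervals are 95% and normal. The replicate numbers were taken as pairs. Deviations from the group mean correlated by 0.379, 0.303, 0.138 and 0.269 for replicates 1 to 4 (across 11702 genes, which are not independent replicates). The pairing of replicate 3 was not borne out: control 3 was closer to OGTi 4 (0.272), and OGTi 3 was closer to control 4 (0.201). The labels call the replicates biological and say no more, so p-values measure the spread between these libraries. The fit was tested on simulated data.

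Positions and transcript lengths (MANE Select) came from GENCODE release 44, in which 96.7% of symbols matched, and promoter windows came from RefSeq. The members and lists were chosen with earlier results of these data known. The rule for named genes took the 10 members and other collagen genes averaging 100 normalized counts or more. It also took the 3 called genes of each of the 4 lists with the largest Wald statistic and the same direction in all 4 pairs. Outside the rule, scarcer collagen genes were named where they were called or encode related chains. Cell type markers and *SLC19A1* were named as well. Alternatives were TMM factors, filterByExpr or no filter, no block, edgeR 4.0.16, a GC and length offset, other lengths, and leaving out each replicate.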

Additional observations from a re-analysis of the deposited data

Results flagged for a closer look

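In each group of 4 libraries, the gap between the highest or lowest library and its nearest neighbour was compared with the range of the group. Of 28 such groups (10 genes and 3 chain ratios and the collagen share, in each treatment group), 2 stood out, where chance gives about 1 in 20, or 1.4 of 28. Both came from *COL6A2* in OGTi replicate 1. Its normalized count was 3042 there and 1515 to 1704 in the other OGTi libraries. The log2 ratio of *COL6A2* to *COL6A1* was -0.922 in the same library and -1.54 to -1.44 in the others. Control replicate 1 was also the highest control library for *COL6A2*, with 2954 normalized counts.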

How the results depend on the processing

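Each of the 10 genes was recomputed under 11 alternatives. Of 110 values, 98 kept their direction and their side of the threshold, 9 lost their call (5 of *COL6A1*, 4 of *COL18A1*) and 3 changed sign, none of which was called. These were *COL6A2* with the GC and length offset (-0.0024) and without replicate 2 (-0.05), and *COL6A3* without replicate 1 (-0.13). Across the replicates left out, *COL6A2* ranged from -0.05 to 0.08 and *COL6A3* from -0.13 to 0.19. The number of the 10 genes called higher was 1 with the replicate block and 0 without the block, both in DESeq2 and in edgeR (0 also at an unadjusted p under 0.05), and ranged from 0 to 1 when a replicate was left out. The number called lower was 6 or 7 under every alternative, 6 without the block. The cause of these changes was not tested. Of 297 values for 27 other genes, 287 kept direction and call. These were other collagen genes, the named genes of the 4 lists and *SLC19A1*. The cell type markers other than *COL1A1* and *COL3A1* were not recomputed under the alternatives.

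The paired (block) sign-flip test of the chain ratios gave p of 0.125 for *COL4A2* to *COL4A1* (difference 0.18) and *COL6A2* to *COL6A1* (-0.21), the smallest that 4 pairs allow, and 0.625 for *COL6A3* to *COL6A1* (-0.15). Without a replicate, these differences ranged from 0.14 to 0.22, from -0.23 to -0.15 and from -0.36 to 0.02. The share of the collagen level held by the 10 genes was higher in OGTi by 4.53 percentage points with counts not divided by length by 6.59 with merged exons, and by 5.40 to 7.14 without a replicate. With merged exon lengths *COL12A1* ranked above *COL4A2* in control and *COL6A1* above it in OGTi. *COL6A3* had too few counts to show a change smaller than its interval.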
